A study of Mus musculus with 2 samples.

Results

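The SLC25 genes encode the mitochondrial carriers, and they were taken here as every row of the deposited raw count table whose symbol begins with Slc25a and a digit. This gave 48 of 45777 rows, of which 47 are protein-coding genes and 1 is the pseudogene Slc25a5-ps. A carrier of this family is a small membrane protein that, in most cases, sits in the inner mitochondrial membrane and exchanges a metabolite between the cytosol and the matrix. Members move ADP and ATP, phosphate, di- and tricarboxylates, amino acids, acylcarnitines, cofactors, glutathione and iron. Proximal tubule cells, which are rich in mitochondria, rely on such exchange for oxidative ATP supply, for ammonia production from glutamine and for glucose synthesis.

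RNA from whole mouse kidneys was sequenced as 1 control library and 1 library of a proximal tubule-specific conditional knockout (CKO) of Inmt, an indolethylamine N-methyltransferase. All mice ate standard chow and had no treatment, per the labels. The Cre driver, the alleles, the sex, the age and the number of animals behind each library are not given in the sources used here. Each group being 1 library, no test across animals was possible, and every interval below covers counting error only and compares these libraries, not the genotypes.

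The control library held 33618076 reads and the CKO library 38136616. The targeted gene Inmt had 17678 control and 5283 CKO reads, a level 4.73-fold lower (95% counting interval 4.59 to 4.88) after scaling. All 15 proximal tubule markers examined were present, and their summed level was 34233 CPM in the control against 19132 CPM in the CKO library, where CPM are counts per unit of TMM-scaled library size. Their median log2 ratio, CKO over control, was -0.58, but -0.26 with total counts and -0.15 with TPM, and Slc5a12 was higher (0.26). On the TMM scale, medians were 0.44 for 4 thick ascending limb, 0.30 for 3 distal convoluted tubule and 0.28 for 4 collecting duct markers. Among these, Cldn10 of the thick ascending limb (-0.52) and Pvalb of the distal convoluted tubule (-0.61) were lower, and the others lay above 0. Over 8 macrophage markers the sum was 70.2 CPM in the control against 309.9 CPM in the CKO library. Of these, 7 (87.5%) were at least 2-fold higher there, against 10.3% of all expressed genes. Of 7 adipocyte markers, Adipoq, Plin1, Lep, Cfd and Cidea had 0 reads in both libraries, and the 7 summed to 0.199 and 0.446 CPM. In whole kidney RNA, fewer cells of a type and less RNA per cell cannot be told apart, and the part of cell composition in the carrier values was not tested.

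With TMM scaling, most carriers were slightly lower in the CKO library, and Slc25a24 was much higher. Total counts, FPKM and TPM put the carrier median above 0. A gene was called expressed at 1 CPM or more in either library, and 41 of the 48 members were. On the log2 ratio of CPM + 0.5, CKO over control, 32 of the 41 lay below 0 (78.0%), against 49.3% of all 15129 expressed genes. The members had a median log2 ratio of -0.24, with the middle of the distribution between -0.44 and -0.05, and all expressed genes had a median of 0.01. The side of 0 on which the carriers lay depended on the scaling. When total counts set the scale, the median of all expressed genes moved up by 0.31, the carrier median became 0.07, and 16 of 41 members lay below 0. Against the median of all genes on the same scale, the carriers lay below it under each of the 12 alternatives run. A change of library scaling moves both medians by nearly the same amount, so the scaling alternatives could hardly change this gap and do not test it.

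Differences of 2-fold or more were few among the carriers, at shares near those of all expressed genes. Slc25a24, Slc25a53 and Slc25a43 were at least 2-fold higher in the CKO library, which is 3 of 41 members (7.32%), against 10.3% of all expressed genes. Slc25a53 and Slc25a43 were under 1 CPM in the control and counted as expressed only through the CKO library, where they are high, so nothing rests on this count. Slc25a22 was the 1 member at least 2-fold lower (2.44%), against 1.66% of all expressed genes. At a 1.5-fold limit, 4 members were higher (9.76%), against 19.3% of expressed genes, and 8 were lower (19.5%), against 6.85%. The 4 higher members at that limit were Slc25a24, Slc25a53, Slc25a43 and Slc25a27. The count of 8 lower members is from the TMM scale and was not rerun with other scalings. With total counts, Slc25a22 was at a log2 ratio of -1.07. Slc25a15, Slc25a39, Slc25a45, Slc25a48 and Slc25a10 were then at -0.49 to -0.29, short of 1.5-fold.

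**Figure D1:**
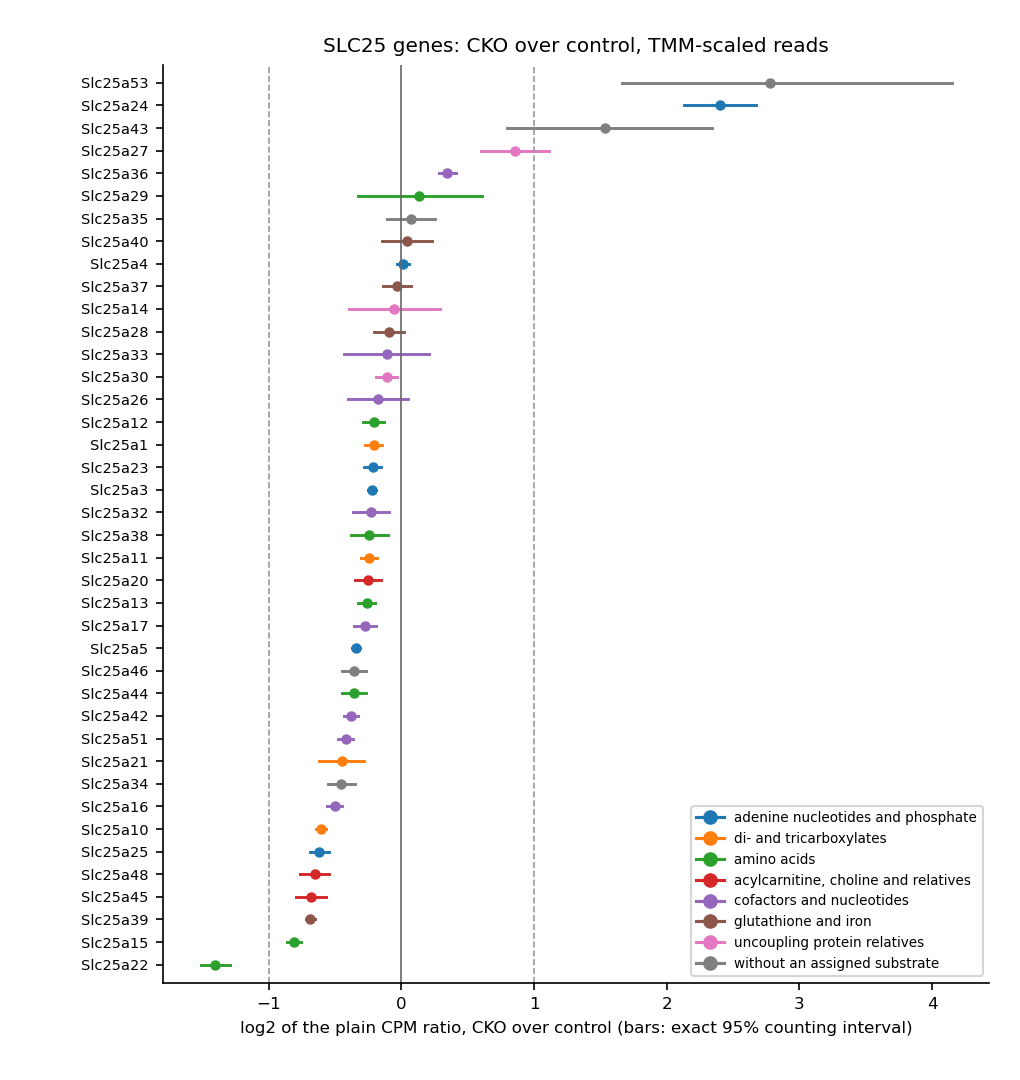
Ratio of the CKO to the control library for 40 of the 41 expressed SLC25 genes, sorted, on a log2 axis of the plain CPM ratio, colored by role. Points are ratios, bars are exact 95% counting intervals, and dashed lines mark 2-fold: with TMM scaling, Slc25a24 and Slc25a53 stand far to the right and Slc25a22 alone lies past the lower line.

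Low-level genes as a whole were higher in the CKO library and abundant ones lower, so the carriers were set beside genes of like level. Among expressed genes with a mean of 100 CPM or more, the median log2 ratio was -0.30 for 14 carriers and -0.30 for all 1934 genes. Between 10 and 100 CPM it was -0.26 for 20 carriers and -0.05 for all 7821 genes. Under 10 CPM it was 0.11 for 7 carriers and 0.35 for all 5374 genes. The abundant carriers therefore had the same median as other abundant genes, and the medians of the middle and low ones lay below those of their level. Under 10 CPM the means were close, at 0.45 for the 7 carriers and 0.46 for all genes. In that range, Slc25a43 and Slc25a53 met the expression minimum only through the CKO library, so nothing rests on the low carriers. Across the 41 members, the log2 ratio and the log2 mean CPM had a Pearson r of -0.55 and a Spearman rho of -0.52, and across all 15129 expressed genes -0.39 and -0.43. Both values on an axis pair come from the same reads, and genes are not independent replicates.

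**Figure D2:**
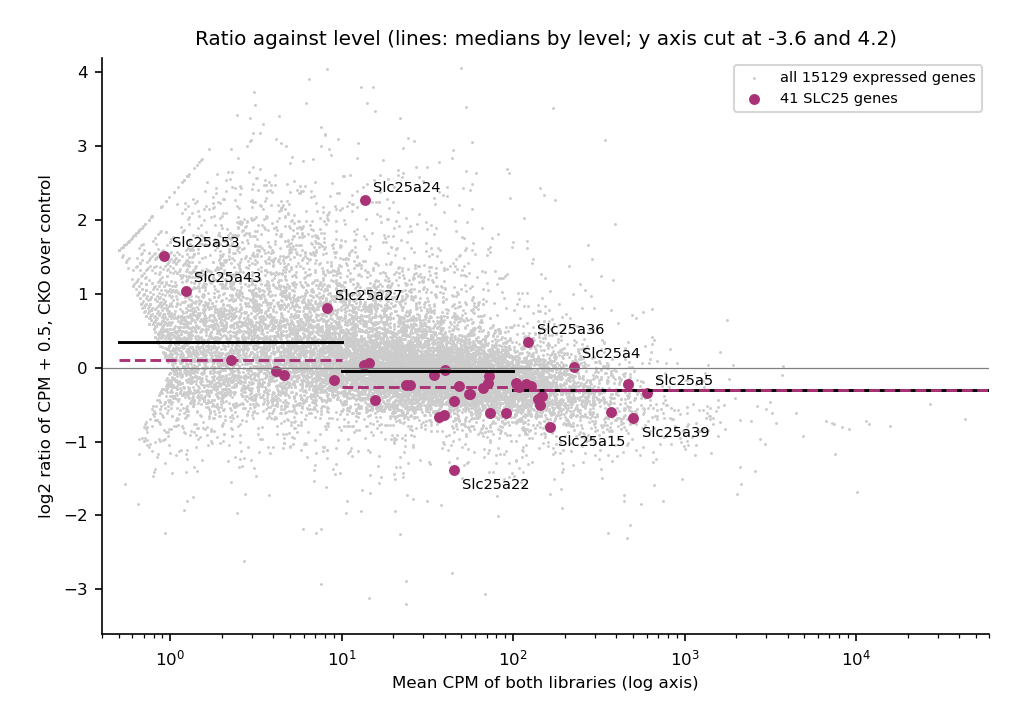
Log2 ratio of CPM + 0.5 (CKO over control) against the mean CPM of both libraries on a log axis, for 41 SLC25 genes (colored) and all 15129 expressed genes (grey). Solid lines are medians of all genes and dashed lines medians of the carriers in 3 ranges of level: the lines meet at 100 CPM or more, and the carrier line lies lower at 10 to 100 CPM (-0.26 against -0.05).

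Promoter windows from RefSeq (GRCm38.p6, 250 bases before to 50 after a listed start) were available for 36 of the 48 members. A listed start need not be the first base of the gene, and for Slc25a43 it lies further inside. There were 46 windows in all. They are shown for members with 1 listed start that carry the contrasts described below, namely Slc25a24 and Slc25a43, higher in the CKO library, and the ADP/ATP exchangers Slc25a4 and Slc25a5, which differed less. Each is written 5′ to 3′ on the gene's strand, with capitals at every match on either strand to the SP1 GC box (GGGCGG) or the CCAAT box (CCAAT), the motifs found there of 8 searched, none of which contains another. The windows are chr3:109122899-109123198 (plus strand) for Slc25a24, chrX:36743382-36743681 (plus) for Slc25a43, chr8:46211013-46211312 (minus) for Slc25a4 and chrX:36795347-36795646 (plus) for Slc25a5.
Slc25a24: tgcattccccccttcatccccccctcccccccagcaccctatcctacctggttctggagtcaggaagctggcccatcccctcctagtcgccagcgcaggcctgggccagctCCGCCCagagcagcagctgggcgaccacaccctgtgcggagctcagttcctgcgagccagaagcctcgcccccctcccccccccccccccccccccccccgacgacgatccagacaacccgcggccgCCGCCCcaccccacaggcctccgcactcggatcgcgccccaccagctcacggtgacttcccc
Slc25a43: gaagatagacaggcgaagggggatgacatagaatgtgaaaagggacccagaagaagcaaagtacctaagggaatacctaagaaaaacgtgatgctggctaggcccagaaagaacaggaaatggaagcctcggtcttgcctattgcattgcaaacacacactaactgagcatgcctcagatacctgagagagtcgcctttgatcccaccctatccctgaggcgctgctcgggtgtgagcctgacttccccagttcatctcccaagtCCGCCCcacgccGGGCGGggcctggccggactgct
Slc25a4: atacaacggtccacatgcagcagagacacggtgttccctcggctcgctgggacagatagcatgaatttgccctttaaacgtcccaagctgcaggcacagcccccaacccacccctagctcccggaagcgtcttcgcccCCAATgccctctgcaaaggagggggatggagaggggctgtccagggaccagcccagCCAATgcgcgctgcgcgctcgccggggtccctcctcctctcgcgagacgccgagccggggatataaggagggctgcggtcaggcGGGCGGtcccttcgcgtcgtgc
Slc25a5: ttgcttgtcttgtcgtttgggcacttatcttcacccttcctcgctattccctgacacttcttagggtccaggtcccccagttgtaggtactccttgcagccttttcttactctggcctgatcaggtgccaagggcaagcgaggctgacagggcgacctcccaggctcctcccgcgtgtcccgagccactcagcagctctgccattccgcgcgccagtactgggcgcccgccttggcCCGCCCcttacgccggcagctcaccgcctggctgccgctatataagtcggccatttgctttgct
All 4 windows hold a GC box, and Slc25a4 alone of these holds CCAAT. Over the family, 38 of 46 windows held a GC box (82.6%), against 35.7% of all 32851 windows, and CCAAT stood in 22 (47.8%), against 37.4%. The E box CACGTG stood in 8 member windows (17.4%), against 7.15%. The TATA box letters TATAAA stood in 2 (4.35%, Slc25a18 and Slc25a21), against 13.6%, and the AP-1 letters TGANTCA in 2 (4.35%, Slc25a11 and Slc25a13), against 7.81%. The ETS letters CCGGAAGT stood in 1 (2.17%, Slc25a20), against 3.89%. None (0) held the core motif of NRF1 (0.971% of all windows) or the ERR letters TCAAGGTCA (0.423%). The median GC content was 59.3% for member windows and 52.7% for all, and a match of letters is a description of the window only.

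Levels can be compared between genes only per length, for which the deposited FPKM values were used. In both libraries the same 5 carriers led, namely Slc25a5, Slc25a3, Slc25a39, Slc25a4 and Slc25a10, with 63.9% of the summed FPKM of the family in the control against 63.3% in the CKO library. The exchange of ADP for ATP, the import of phosphate, the import of glutathione and the exchange of dicarboxylates were thus the functions with the most carrier mRNA. The median over the 41 expressed members was 19.4 FPKM in the control and 20.1 FPKM in the CKO library, and the order of members was nearly the same in both (Spearman rho 0.98 over 41 members). The family took 0.430% of the control library (exact 95% interval 0.428 to 0.433) and 0.416% of the CKO library (0.414 to 0.418). Without the reads of the mitochondrial chromosome, which took 14.4% of control and 10.8% of CKO reads, the shares were 0.503% and 0.466%. FPKM values rest on a scale near that of total counts, so a gene can be slightly lower in CPM and slightly higher in FPKM. Ratios below are from CPM.

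**Figure D3:**
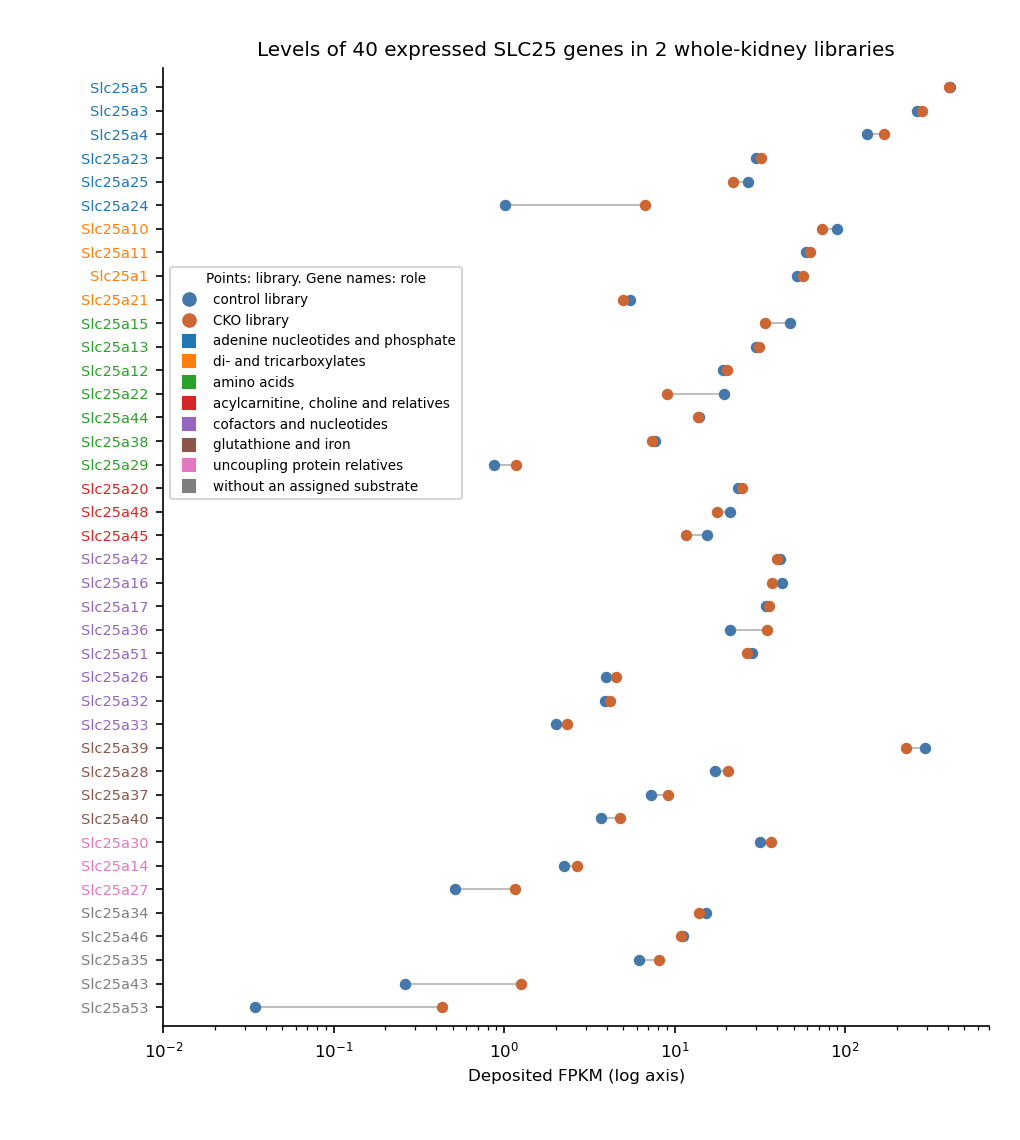
Deposited FPKM (log axis) of 40 of the 41 expressed SLC25 genes in the control and the CKO library, grouped by role, with a line joining both values of a gene. Slc25a5, Slc25a3, Slc25a39 and Slc25a4 are above 100 FPKM in both libraries, and the long lines belong to Slc25a24, Slc25a53, Slc25a43, Slc25a27 and Slc25a22.

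The ADP/ATP exchangers bring ADP into the matrix and release ATP to the cytosol. Slc25a5, the exchanger common in dividing and epithelial cells, was the most abundant carrier, at 412 FPKM in the control and 405 FPKM in the CKO library. Its 20359 control and 22729 CKO reads gave 676 and 534 CPM, a level 1.27-fold lower (1.24 to 1.29). Slc25a4, the exchanger typical of heart and muscle, had 6779 and 9677 reads, or 225 and 227 CPM, with a log2 ratio of 0.01. By FPKM, Slc25a5 was 3.09 times as high as Slc25a4 in the control and 2.42 times as high in the CKO library, so the lead of Slc25a5 was smaller there. The read ratio of Slc25a4 to Slc25a5 was 1.28-fold higher in the CKO library (exact 95% counting interval 1.23 to 1.33), a value free of the library scaling. The pseudogene Slc25a5-ps had 4 and 5 reads, and reads of Slc25a5 and its near-identical copies can be split uncertainly. Slc25a31, the exchanger of male germ cells, had 15 control reads and 0 CKO reads. By the exact 95% counting interval it was at least 5.07-fold lower, but its control level of 0.498 CPM is under the expression minimum.

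Slc25a3 carries the phosphate that ATP synthase joins to ADP. It had 15222 and 18441 reads, or 506 and 433 CPM, and was 1.17-fold lower (1.14 to 1.19). By FPKM it was 264 in the control against 282 in the CKO library, so its small difference takes either sign with the scale.

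The ATP-Mg/phosphate carriers change the total pool of adenine nucleotides in the matrix, and Slc25a23, Slc25a24 and Slc25a25 have calcium-binding domains that regulate them. Slc25a24 (NCBI gene 229731, chromosome 3, 109123149 to 109168409, GRCm38) had the largest log2 ratio of the family. It had 131 control and 976 CKO reads, or 4.35 CPM (exact Poisson interval 3.64 to 5.16) and 22.9 CPM (21.5 to 24.4). The ratio was 5.27 (4.39 to 6.37), the intervals of both libraries were far apart, and its log2 ratio of 2.27 ranked 175 from the highest of 15129 expressed genes. Markers of macrophages were higher in the same library, as given above, and their part in this value was not tested. Slc25a25 differed in the other direction, with 3326 and 3064 reads, 110 and 72.0 CPM, and a level 1.54-fold lower (1.46 to 1.61). Slc25a23, with 3845 and 4679 reads, was 1.16-fold lower (1.11 to 1.21). By FPKM, Slc25a24 made up 1.75% of the summed level of these 3 carriers in the control against 11.0% in the CKO library, while Slc25a25 made up 46.6% and 36.1%, and the sum itself was 57.9 and 60.7. Slc25a54 and Slc25a41, relatives of these carriers, had 0 reads in both libraries, which allows up to 0.0996 CPM in the control and 0.0705 CPM in the CKO library at 3 reads.

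Among the carriers of di- and tricarboxylates, all 4 had a log2 ratio below 0, with a median of -0.34 that stayed below 0 with total counts (-0.028) and FPKM (-0.027) and lay above 0 with TPM (0.075). Slc25a10, the dicarboxylate carrier that exchanges malate or succinate for phosphate, led them at 89.1 FPKM in the control against 72.9 in the CKO library. Its 13594 and 12630 reads gave 451 and 297 CPM, 1.52-fold lower (1.49 to 1.56). Slc25a11, the oxoglutarate/malate carrier of the malate-aspartate shuttle, had 4164 and 4964 reads and was 1.19-fold lower (1.14 to 1.24). The read ratio of Slc25a10 to Slc25a11 was 1.28-fold lower in the CKO library (1.22 to 1.35). Slc25a1, which exports citrate for fatty acid synthesis, and Slc25a21, the oxodicarboxylate carrier, had log2 ratios of -0.21 and -0.44. Slc25a21 overlaps Gm30001 (163 and 149 reads), so part of its reads is uncertain.

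The amino acid carriers held the family's lowest ratio. Slc25a22 (NCBI gene 68267, chromosome 7, 141429749 to 141437874), a carrier that brings glutamate into the matrix together with a proton, had 1974 control and 1056 CKO reads. Its level was 65.6 CPM (62.7 to 68.5) and 24.8 CPM (23.3 to 26.3), 2.64-fold lower (2.45 to 2.85), with no overlap of the intervals and rank 82 from the lowest of 15129 expressed genes. Slc25a18, the other glutamate carrier, had 0 and 5 reads, so nearly all reads of these 2 genes belonged to Slc25a22 in either library. Slc25a13 and Slc25a12, which exchange matrix aspartate for cytosolic glutamate and feed the malate-aspartate shuttle, were 1.20-fold (1.15 to 1.25) and 1.16-fold (1.09 to 1.22) lower. Their read ratio, Slc25a12 over Slc25a13, differed by 1.04-fold (0.966 to 1.11), an interval that includes no difference. The read ratio of Slc25a22 to Slc25a13 in the CKO library was 0.454 times that in the control (0.415 to 0.495).

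Slc25a15, the ornithine carrier of the urea cycle and of arginine metabolism, had the second lowest ratio, with 6303 and 5089 reads. The level was 209 CPM (204 to 215) in the control against 119.5 CPM (116 to 123) in the CKO library, 1.75-fold lower (1.69 to 1.82). The other ornithine carrier, Slc25a2, had 0 and 2 reads. Slc25a44, a carrier of branched-chain amino acids, was at -0.35, Slc25a38, which supplies glycine for heme synthesis, at -0.24, and Slc25a29, a carrier of basic amino acids, at 0.11 on 65 and 101 reads.

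Slc25a20 exchanges acylcarnitine for carnitine, the step that brings long-chain fatty acids to oxidation. It had 1573 and 1867 reads, or 52.2 and 43.8 CPM, 1.19-fold lower (1.11 to 1.27), and its sign turned with total counts, FPKM and TPM. The relatives Slc25a45 and Slc25a48, the latter a choline carrier, were further down. Slc25a45 had 1363 and 1202 reads and was 1.60-fold lower (1.48 to 1.73), and Slc25a48 had 1461 and 1315 reads and was 1.57-fold lower (1.46 to 1.69). Both kept a log2 ratio below 0 in all 10 alternatives run for them. Slc25a47, a carrier typical of liver, had 19 and 31 reads and was under the minimum.

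Of the 9 carriers of cofactors and nucleotides, 8 had a log2 ratio below 0 and the median was -0.27, which turned to 0.047 with total counts, 0.044 with FPKM and 0.15 with TPM. Slc25a42, which carries coenzyme A, was the most abundant by the mean of both libraries, at 41.4 and 39.6 FPKM, and was 1.30-fold lower (1.25 to 1.35). Slc25a16, linked to coenzyme A, was 1.42-fold lower. Slc25a51, which imports NAD, was at -0.42, and the peroxisomal carrier Slc25a17 at -0.27. Slc25a26 imports S-adenosylmethionine, the methyl donor that Inmt also uses, and had 290 and 363 reads with a ratio of 0.885 (0.756 to 1.04), an interval that includes 1. Slc25a32, for folate and FAD, was at -0.23.

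Slc25a36, a carrier of pyrimidine nucleotides, was the exception among them. It had 3255 control and 5856 CKO reads, or 108 CPM (104 to 112) and 138 CPM (134 to 141), a ratio of 1.27 (1.22 to 1.33), and it was the 1 carrier above 0.1 on the log2 scale among the 14 members of 100 CPM or more. The other pyrimidine carrier, Slc25a33, had 145 and 190 reads and a ratio of 0.927 (0.743 to 1.16). The read ratio of Slc25a36 to Slc25a33 was 1.37-fold higher in the CKO library (1.09 to 1.72).

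Slc25a39 and Slc25a40 import glutathione into the matrix. Slc25a39 ranked 2 in the family at 293 FPKM in the control and 3 at 227 FPKM in the CKO library. With 18697 and 16450 reads, or 621 and 386 CPM, it was 1.61-fold lower (1.57 to 1.64), the largest fold among the 5 most abundant carriers. Slc25a40 had 398 and 580 reads and a ratio of 1.03 (0.905 to 1.17), so the read ratio of Slc25a40 to Slc25a39 was 1.66-fold higher in the CKO library (1.45 to 1.89). By FPKM, Slc25a39 was 79.7 times as high as Slc25a40 in the control and 47.6 times as high in the CKO library.

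The mitoferrins Slc25a37 and Slc25a28 bring iron into the matrix for heme and iron-sulfur clusters. Slc25a37, the form of developing red cells, had 1217 and 1682 reads and a ratio of 0.977 (0.907 to 1.05), and Slc25a28, the form of other tissues, had 1078 and 1429 reads and a ratio of 0.937 (0.866 to 1.02). Neither interval excludes 1, and the read ratio of Slc25a37 to Slc25a28 differed by 1.04-fold (0.934 to 1.16). The 7 red cell markers summed to 506 CPM in the control and 195 CPM in the CKO library. Of the 6 expressed markers, 4 were at least 2-fold lower, against 1.66% of all expressed genes. Epb42 was at least 2-fold higher, against 10.3% of all expressed genes. The part of red cells in the values of the iron carriers was not tested.

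**Figure D4:**
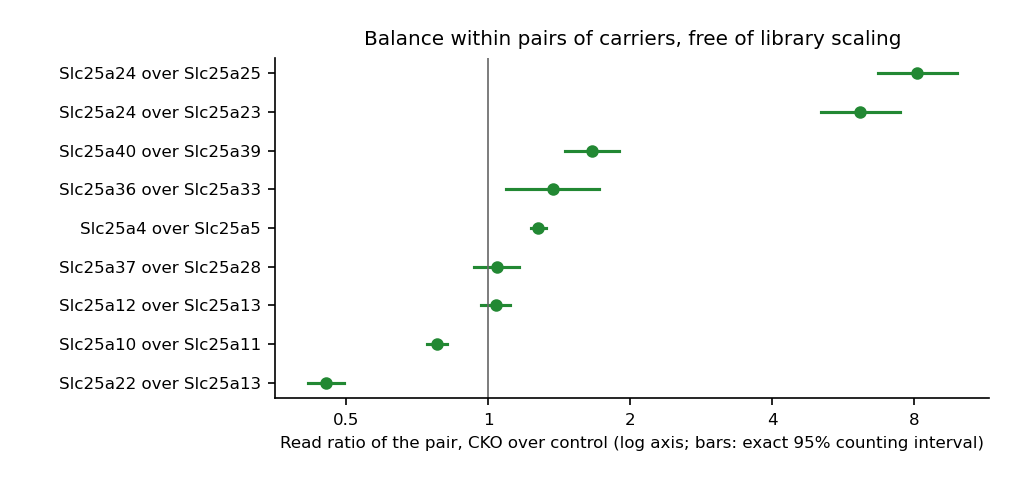
Read ratio within 9 pairs of carriers, CKO over control, on a log axis; points are ratios of ratios and bars exact 95% counting intervals. Slc25a24 stands apart from both Slc25a23 (6.12-fold) and Slc25a25 (8.09-fold), while the bars of the mitoferrins and of the aspartate/glutamate exchangers include 1.

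Among relatives of the uncoupling proteins, which let protons or anions leak across the inner membrane, Slc25a30 led, a gene of kidney cells, with 31.6 and 36.7 FPKM and a log2 ratio of -0.11. Slc25a14 had 127 and 173 reads and a log2 ratio of -0.05. Slc25a27, best known from brain, was higher in the CKO library, with 176 and 450 reads, 5.85 CPM (5.01 to 6.78) and 10.6 CPM (9.61 to 11.6), and a ratio of 1.81 (1.52 to 2.16). With total counts its log2 ratio reached 1.10.

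Of the 5 members without an assigned substrate, 2 were at least 2-fold higher, both on few reads and both on the X chromosome, against 10.3% of all expressed genes and 21.4% of those under 10 CPM, the range in which both lie. Both met the minimum only through the CKO library, and the count is a description only. Slc25a53 (chromosome X, 136981116 to 137038302) had 7 and 68 reads, or 0.232 CPM (0.0935 to 0.479) and 1.60 CPM (1.24 to 2.02), a ratio of 6.87 (3.16 to 17.7). It overlaps Zcchc18 over 6094 bp, which had 9 and 35 reads, and whether the counting used strand is not given in the sources used here, so its reads are uncertain. Slc25a43 (chromosome X, 36743570 to 36777307) had 19 and 78 reads, or 0.631 CPM (0.380 to 0.985) and 1.83 CPM (1.45 to 2.29), a ratio of 2.90 (1.74 to 5.08). It shares 102 bp with LOC115489213, which had 0 and 1 reads. Neither passed 2-fold with a pseudocount of 2 CPM, where their log2 ratios were 0.69 and 0.54, and Slc25a53 did not with FPKM either, at 0.80. Slc25a34 led this group by level, at 15.2 and 13.8 FPKM on 1563 and 1616 reads, and was 1.37-fold lower (1.28 to 1.47). The outer membrane protein Slc25a46, which acts in mitochondrial fission and fusion, was at -0.35 on the log2 scale, and Slc25a35 at 0.07.

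Partners of the carriers were described from lists of the same pathways. The Slc25a-like proteins with other symbols were Ucp2, Mtch1 and Mtch2 at expressed levels. Ucp2, an uncoupling protein of many cell types, was at 83.3 CPM in the control and 149.7 CPM in the CKO library (ratio 1.80, interval 1.72 to 1.88), while Mtch1 was at 0.01 and Mtch2, which helps insert outer membrane proteins, at -0.35. Ucp1 had 0 and 2 reads and Ucp3 5 and 20. Of the 22 other transport genes of the mitochondrial membranes, 1 was at least 2-fold higher (4.55%), against 10.3% of all expressed genes. None (0) was at least 2-fold lower, against 1.66%. The 22 genes had a median of -0.23 that turned to 0.084 with total counts, 0.082 with FPKM and 0.19 with TPM. The higher one was Mcub, an inhibitory subunit of the calcium uniporter, with 13 and 84 reads and a ratio of 4.57 (2.53 to 8.94). At 0.432 CPM in the control and 1.97 CPM in the CKO library, it met the minimum only through the latter, so nothing rests on this count. The lowest was Sfxn1, a serine carrier, at -0.73. Vdac1, the outer membrane pore and the most abundant of them, was at -0.44. The 13 genes that import carrier proteins and insert them into the inner membrane had none (0) past 2-fold. The shares of all expressed genes were 10.3% higher and 1.66% lower. These 13 had a median of -0.26 (0.050 with total counts, 0.030 with FPKM, 0.13 with TPM) and a range from -0.67 for Timm9 to 0.00 for Timm10.

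Enzymes that hand substrates to the carriers were mostly lower on the TMM scale. Their median control levels were 427 CPM (malate-aspartate shuttle), 424 CPM (citrate), 207 CPM (carnitine) and 400 CPM (glutamine and ammonia). All expressed genes with a mean of 100 CPM or more had a median log2 ratio of -0.30, and the part of level in these lists was not tested. With TPM the medians of the citrate and glutamine lists lay above 0, at most 0.016, and with total counts all of the lists in this paragraph stayed below 0. The malate-aspartate shuttle enzymes Mdh1, Mdh2, Got2 and Got1 were at -0.56, -0.47, -0.46 and -0.13. Around citrate export, the median of 5 genes was -0.40, from -0.85 for Me1, a malic enzyme, to -0.25 for Acly, which splits citrate. In the carnitine shuttle the median of 5 was -0.48, with the carnitine importer Slc22a5 at -0.84, Cpt2 at -0.64, Crat at -0.48, Cpt1a at -0.31 and Cpt1b at 0.21. For glutamine and ammonia, Pck1 was at -0.83, Glud1 at -0.36 and Slc38a3 at -0.29, beside Slc25a22 at -1.38. Pck1 also stands among the proximal tubule markers, whose median was -0.58 over 15 genes. Of the 15, 4 (26.7%) were at least 2-fold lower, against 1.66% of all expressed genes and 4.24% of those at 100 CPM or more. None (0) of the enzyme and transporter genes in these 4 partner lists passed 2-fold. Of all expressed genes, 10.3% were at least 2-fold higher and 1.66% at least 2-fold lower. At 100 CPM or more these shares were 1.34% and 4.24%, so a count of 0 among so few genes says little.

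Around ornithine the values split. Arg2, the mitochondrial arginase that makes ornithine, was at 8.10 CPM in the control and 15.5 CPM in the CKO library (ratio 1.92, interval 1.65 to 2.23), and Oat, which turns ornithine into glutamate semialdehyde, at 119 and 175 CPM (ratio 1.47, interval 1.41 to 1.53). Gatm, which makes ornithine in the first step of creatine synthesis, was at -0.68 and is itself a proximal tubule marker, and Otc and Cps1 had 0 reads in both libraries. Slc25a15 thus lay 1.75-fold lower beside 2 enzymes of ornithine that were higher and 1 that was lower.

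Heme and iron-sulfur genes had a median of -0.34 over 9 genes (0.063 with TPM), from -0.80 for Cpox to 0.20 for Ppox. None (0) of the 9 passed 2-fold, where the shares of all expressed genes were 10.3% higher and 1.66% lower. The 8 regulators of mitochondrial biogenesis had a median of -0.25 (0.066 with total counts, 0.067 with FPKM, 0.17 with TPM), with the coactivator gene Ppargc1a at -0.02, Ppargc1b the lowest at -0.50, Pprc1 the highest at 0.14, and Ppara, the most abundant by CPM, at -0.31.

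**Figure D5:**
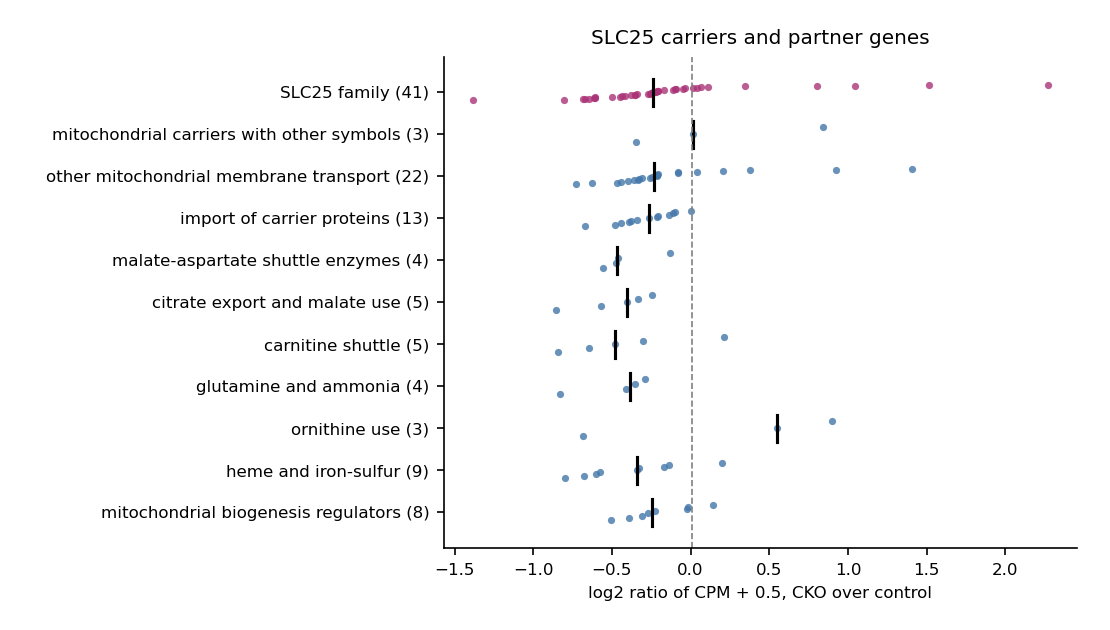
Log2 ratio of CPM + 0.5 (CKO over control) for each expressed SLC25 gene and each expressed gene of 10 partner lists, with the number of genes in brackets; a black bar is the median and the dashed line the median of all expressed genes (0.01). The carriers spread more widely than most lists, from -1.38 to 2.27, and the ornithine list has its median at 0.55.

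The carriers were last set beside larger groups. The 90 expressed genes taken by symbol for the nuclear-encoded respiratory chain and ATP synthase had a median log2 ratio of -0.34. Of these, 1 (1.11%) was at least 2-fold higher and none (0) at least 2-fold lower, against 10.3% and 1.66% of all expressed genes. The symbol rule also takes in names that begin with Ndufaf, which are assembly factors, and leaves out Cyc1 and Cycs. The middle values of the respiratory chain genes lay between -0.41 and -0.25, a narrower span than the -0.44 to -0.05 of the carriers. The 251 expressed solute carrier genes outside SLC25 had a median of -0.02, with 24 (9.56%) at least 2-fold higher and 9 (3.59%) at least 2-fold lower. On the TMM scale the carrier median lay between that of the other solute carriers and that of the respiratory chain. Median control levels followed the same order, at 35.4 CPM for the other solute carriers, 62.5 CPM for the carriers and 140 CPM for the respiratory chain. Abundant genes as a whole were lower in the CKO library, as given above, and the part of level in this order was not tested. No test of these differences is possible with 1 library per group.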

How the data were processed

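Whole-kidney RNA was made into libraries with a stranded mRNA kit, per the labels' protocols. The submitters' processing notes name FastQC, STAR 2.7.3a, Cufflinks 2.2.1, HTSeq, edgeR and DESeq2, and the mm10 build, with no role or order. The authors deposited whole-number read counts per gene, FPKM and TPM values, per the file headers. A second deposited table holds normalized signal values for 19550 genes with a read in both libraries, within a relative deviation of 0.000445 of the CPM used here.

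Counts were scaled with TMM (edgeR 4.0.16, R 4.3.3) to effective sizes of 30.1 Mreads for the control and 42.6 Mreads for the CKO library, and CPM were taken from these. Log2 ratios used a pseudocount of 0.5 CPM, so ratios of low genes are understated. Plain ratios carry exact Clopper-Pearson 95% intervals and levels exact Poisson intervals. These cover counting error only, since reads without molecular identifiers are not independent molecules, and 1 library per group gives no p-value. Python 3.11.15 with numpy 2.4.6, pandas 2.3.3, scipy 1.17.1 and matplotlib 3.10.9 did the rest.

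The calls and intervals were tested on simulated counts of CKO against control for 45777 genes, drawn with counting error only. The true library sizes were supplied, so the TMM scaling and differences between animals were not tested. Changed genes were drawn from those with a mean of 2 CPM or more over both libraries. The recovery therefore does not cover genes as low as Slc25a43 and Slc25a53. Of 100 expressed genes made 4-fold higher and 100 made 4-fold lower, 100 and 98 passed 2-fold, and none (0) of 14612 unchanged genes did. Coordinates and promoters are from RefSeq (GRCm38.p6, the assembly of mm10), with coordinates matched by gene ID for all 48 members and promoters for 36.

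The members and lists were chosen with earlier results of these data known, and the 9 pairs, the ranges of level and the medians of lists under other scalings after the values were seen. Members named in full are those past 2-fold, the 5 highest and 5 lowest ratios, the 5 most abundant by FPKM and the most abundant of each role. A few genes that enter the counts and medians are not reported here by name. Alternatives were other scalings (DESeq2 1.42.0, total counts), pseudocounts, minimums and fold limits, and the deposited TPM, FPKM and normalized values.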

Additional observations from a re-analysis of the deposited data

How the results depend on the processing

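The carrier median of -0.24 became 0.074 with total counts, -0.045 with totals that leave out mitochondrial and the 50 most abundant genes, 0.17 with TPM and 0.068 with FPKM, where all expressed genes had medians of 0.32, 0.20, 0.40 and 0.28. Set against all genes, it lay lower under all 12 alternatives, by -0.29 to -0.19. With total counts this gap was -0.24, as in the main run, since a scaling moves both medians nearly alike and does not test the gap. The count of members at least 2-fold higher went from 3 to 1 with a pseudocount of 2 CPM, with a minimum of 10 CPM and without the members that overlap another gene, since the latter and the minimum leave out Slc25a43 and Slc25a53. It was 2 with FPKM, where Slc25a53 was at 0.80, and 4 with total counts, where Slc25a27 was at 1.10. Slc25a24 passed 2-fold in all 10 alternatives run for it, with log2 ratios from 1.97 to 2.57. The count at least 2-fold lower went from 1 to 8 at a 1.5-fold limit on the TMM scale and to 0 with TPM, where Slc25a22 had its highest value of -0.98. Of 18 named members, Slc25a20, Slc25a3, Slc25a30, Slc25a4, Slc25a42 and Slc25a5 took the other sign under 1 to 4 alternatives, none of them past 2-fold. No paired analysis was possible because each group has 1 library. Few reads limit Slc25a53, Slc25a43 and Slc25a29.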

Other observations

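Of the 48 members, 4 pairs of genes lie within 50 kb of each other on a chromosome (GRCm38). Slc25a54, with 0 reads in both libraries, ends 6.57 kb before Slc25a24, which had 131 and 976 reads. On the X chromosome, Slc25a43 (19 and 78 reads, log2 ratio 1.04) ends 18.3 kb before Slc25a5 (20359 and 22729 reads, -0.34), so a low-level gene that was higher and the most abundant carrier, which was lower, are neighbours. Slc25a41, with 0 reads, lies 2.06 kb from Slc25a23, which had 3845 and 4679 reads. Slc25a29 and Slc25a47, 14.0 kb apart on chromosome 12, both had few reads, with log2 ratios of 0.11 and 0.12.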
